A study of Mus musculus with 15 samples.

Results

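The immune cells of the injured mouse cortex, collected on CD45 microbeads, were compared between mice lacking the receptor EphA4 in endothelial cells and wild type mice. Members were chosen by their labels. They are 7 of the 15 libraries of the series, 3 from wild type (WT) and 4 from knockout (KO) mice, and all genes of their count table were examined. Every mouse received a moderate controlled cortical impact, a mechanical injury to the right parietal cortex, and tissue was taken 1 day later. All mice carried floxed EphA4 alleles. The KO mice also carried CreERT2, a Cre recombinase switched on by tamoxifen, under the VE-cadherin promoter, which is active in endothelial cells, so the captured leukocytes and microglia are not the cells in which the deletion was designed to occur. The age of the mice, tamoxifen dosing of either group, and whether a library is 1 animal or a pool are not stated in the labels. P-values therefore measure the spread between these libraries, which may be partly technical.

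CD45, encoded by Ptprc, is a phosphatase on the surface of all nucleated blood-derived cells. On the first day after a brain injury, a CD45 fraction of cortex holds resident microglia together with neutrophils and monocytes that have entered from the blood. EphA4 is a receptor tyrosine kinase that binds ephrins on neighbouring cells. In the adult brain it is known mainly for limiting axon growth and for contacts between neurons and astrocytes.

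Ptprc lay at 980, 849 and 816 CPM (the count divided by the total of the library and multiplied by 1000000) in the WT libraries and at 923, 930, 1043 and 805 CPM in the KO libraries. In the flow-through, the cells that passed the beads, it lay between 0.660 and 1.22 CPM. Total counts of the 7 libraries ran from 11574414 to 31337948. Markers of microglia (Cx3cr1, a chemokine receptor, 586 to 788 CPM), monocytes (Ccr2, the receptor for Ccl2, 203 to 572 CPM) and neutrophils (S100a8, a calcium-binding protein, 898 to 1851 CPM) were present in every library. The T cell marker Cd3e was low (2.97 to 7.05 CPM), and the endothelial tight junction gene Cldn5 lay between 15.8 and 31 CPM. One further library, labelled flow-through WT, stands in the CD45 count table and has 906 CPM of Ptprc. Its label and its table disagree, so it entered no group, and its values are given only as those of the left-out library. Libraries WT 3 and KO 4 stood apart from the other 5, as described at the end. Of 102 genes examined by name, 38 had a log2 fold change that moved by more than 1.5 times without WT 3, 22 without KO 4 and 30 without both, and each of the other libraries moved between 14 and 19.

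Epha4 transcripts were scarce in these cells and did not separate the genotypes. The gene Epha4 (GRCm38 chromosome 1, minus strand, 77367185 to 77515088) lay at 2.92, 2.77 and 2.7 CPM in WT and at 1.69, 3.54, 1.73 and 3.19 CPM in KO. The KO libraries lay on both sides of the WT libraries. The log2 fold change of KO against WT was -0.17 (SE 0.31, 95% interval -0.86 to 0.53, edgeR adjusted p = 0.989), and -0.32 without WT 3 and KO 4. The deletion is endothelial, and the counts do not separate the deleted exons from the rest of the gene, so this value does not check the labels. Of 19 Eph receptors and ephrins, 16 were tested, 8 were higher and 8 lower in KO, and none had an unadjusted p under 0.05.

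No gene passed the edgeR test. Of 15660 genes tested with edgeR's quasi-likelihood test, 0 (0%) had an adjusted p under 0.05, and the smallest adjusted p was 0.775. An unadjusted p under 0.05 was found for 693 genes (4.43%), of which 360 were lower in KO (2.3% of all genes tested) and 333 higher (2.13%). The KO libraries all lay below the WT libraries for 339 genes (2.16%) and all above them for 458 genes (2.92%). DESeq2, which tested 11834 genes after its own filter, called 9 (0.0761%): Slc7a5, Lrg1, Slc43a3, Sema6b, Lbp, Abhd1, Soat2 and the antisense RNA Gm26626 were lower in KO and 1110059E24Rik was higher. The median log2 fold change over all genes was 0.02 and the median of its absolute value was 0.13. Of all genes tested, 54.5% were higher in KO. The counts given below for gene lists are to be read beside that share and the 4.43%.

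These libraries limit the size of most differences. The 95% interval of the log2 fold change lay wholly within -1 to 1, a change of less than 2-fold either way, for 11498 genes (73.4%). Among the 5611 genes with a mean of at least 5 log2 CPM this held for 5469 (97.5%), and the median half-width of the interval was 0.23. Estimates beyond that size were found for 379 genes, of which 7 had a mean of at least 5 log2 CPM. One of these, chosen here after its values were seen, was Syne1, a large protein that links the nucleus to the cytoskeleton. It lay at 151, 98.6 and 472 CPM in WT and at 51.9, 62.5, 73.5 and 104 CPM in KO, groups that overlapped. Its log2 fold change was -1.76 (SE 0.57) with all libraries and -0.80 without WT 3. Mirt1, a long noncoding RNA among the same 7 genes, lay at 277, 204 and 469 CPM in WT and at 118, 147, 252 and 122 CPM in KO, and its log2 fold change went from -1.01 to -0.61 without WT 3.

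**Figure D1:**
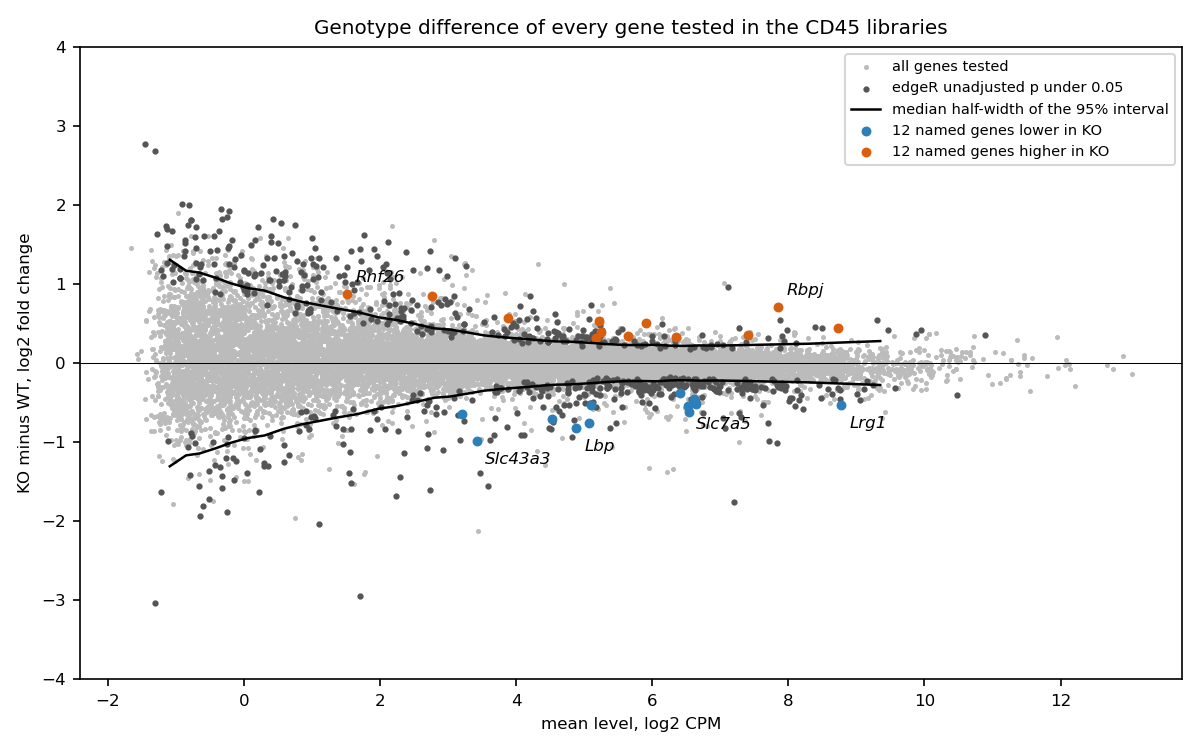
Log2 fold change of KO against WT (vertical axis) against mean level in log2 CPM (horizontal axis) for the 15660 genes tested, with 3 WT and 4 KO CD45 libraries. Black lines give the median half-width of the 95% interval in bins of equal gene number, dark points the 693 genes with an unadjusted edgeR p under 0.05, and coloured points the 12 named genes in each direction, which lie close to or outside the lines.

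Among the 24 genes named by rank, the smallest p was that of Slc7a5, the large neutral amino acid transporter that imports leucine and other essential amino acids. Slc7a5 lay at 110, 109 and 113 CPM in WT and at 74.1, 86.0, 78.5 and 71.5 CPM in KO. The groups did not overlap, and the left-out library, at 92.0 CPM, fell between them. The mean was 111 ± 2.30 CPM in WT (SD, n = 3) and 77.5 ± 6.35 CPM in KO (SD, n = 4). The log2 fold change was -0.54 (SE 0.09, 95% interval -0.74 to -0.35), with an adjusted p of 0.775 in edgeR and 0.000836 in DESeq2. Slc43a3, a transporter of purine nucleobases, lay at 12.2, 14.3 and 17.3 CPM in WT and at 7.50, 9.66, 5.53 and 7.31 CPM in KO. Its groups did not overlap either, and its log2 fold change was -0.99 (SE 0.19; edgeR adjusted p = 0.974, DESeq2 adjusted p = 0.00527). Both are solute carriers, at positions 121881150 to 121907694 of chromosome 8 and 84936579 to 84958509 of chromosome 2.

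Lrg1 and Lbp encode secreted proteins of the acute phase response. Lrg1, a leucine-rich glycoprotein that acts on TGF-beta signalling in vessels and is stored in neutrophil granules, lay at 531, 506 and 547 CPM in WT and at 336, 375, 396 and 377 CPM in KO. The log2 fold change of Lrg1 was -0.54 (SE 0.10; edgeR adjusted p = 0.974, DESeq2 adjusted p = 0.00216), and its groups did not overlap. Lbp, the protein that hands bacterial lipopolysaccharide to Cd14, lay at 39.4, 39.7 and 36.9 CPM in WT and at 31.4, 20.7, 17.9 and 18.7 CPM in KO. KO 1 stood nearer to WT than the other KO libraries did. The log2 fold change of Lbp was -0.83 (SE 0.17; edgeR adjusted p = 0.974, DESeq2 adjusted p = 0.0235), and without KO 1 it was -1.05 with an edgeR adjusted p of 0.0457. The left-out library, at 41.2 CPM of Lbp and 492 CPM of Lrg1, was above all 7 libraries for Lbp and between the groups for Lrg1. Cd14, the receptor that takes up lipopolysaccharide from Lbp, did not separate the groups (log2 fold change -0.07, SE 0.19, and 0.12 without WT 3).

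Sema6b, a transmembrane semaphorin that binds plexins, is the neighbour of Lrg1. Both lie on the minus strand of chromosome 17, with 1083 bases between them. Sema6b lay at 128, 109 and 107 CPM in WT and at 87.7, 83.6, 85.8 and 82.4 CPM in KO, without overlap (log2 fold change -0.46, SE 0.09; edgeR adjusted p = 0.974, DESeq2 adjusted p = 0.0235). Soat2, an enzyme that esterifies cholesterol for storage, lay at 126, 113 and 118 CPM in WT and at 82.3, 76.1, 95.9 and 84.7 CPM in KO, also without overlap. Its log2 fold change was -0.52 (SE 0.11; edgeR adjusted p = 0.974, DESeq2 adjusted p = 0.0377). Soat1, the other enzyme of this activity, had a log2 fold change of -0.16 (SE 0.08).

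Of the 9 genes called by DESeq2, Abhd1 and Gm26626 share exon bases with a gene on the other strand. Abhd1, a hydrolase of unsettled function, lay at 10.7, 12.1 and 11.1 CPM in WT and at 7.50, 8.05, 6.65 and 7.31 CPM in KO (log2 fold change -0.64, SE 0.13; DESeq2 adjusted p = 0.0314). Exons of Preb on the opposite strand cover 89.6% of those of Abhd1, and reads of the pair cannot be told apart because the strand setting of the counting is not given. Preb, at 125 to 150 CPM, had a log2 fold change of -0.07 (SE 0.09). Gm26626, antisense to Runx1, lay at 14.8, 9.82 and 25.3 CPM in WT and at 6.48, 7.04, 6.05 and 6.33 CPM in KO. The uncharacterised gene 1110059E24Rik lay at 12.5, 12.5 and 10.8 CPM in WT and at 19.5, 19.3, 19.5 and 21.9 CPM in KO, without overlap (log2 fold change 0.72, SE 0.12; DESeq2 adjusted p = 0.000836).

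The other 5 of the 12 named genes lower in KO had log2 fold changes between -0.76 and -0.38. Ptger2, a receptor for prostaglandin E2 that raises cyclic AMP, lay at 37.9 to 45 CPM in WT and at 26.5 to 33.6 CPM in KO. The left-out library, with 25.4 CPM of Ptger2, lay below every KO library. Pnpla2, the lipase that begins the breakdown of stored triglyceride, lay at 96.6 to 144 CPM in WT and at 70.6 to 81.0 CPM in KO. Tnfsf14, the cytokine LIGHT, lay at 93.1 to 99.7 CPM in WT and at 70.5 to 82.9 CPM in KO. Ankrd22, at 22.7 to 35.3 CPM in WT and 16.1 to 20.5 CPM in KO, and the lysosomal sulfatase Arsg, at 33.6 to 53.7 CPM in WT and 21.0 to 28.9 CPM in KO, completed the group.

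Among the 12 genes named by rank as higher in KO, Rbpj, the DNA-binding protein through which Notch receptors act on transcription, had the smallest p. The p of the uncharacterised 1110059E24Rik, which the ranking leaves out with all genes under provisional names, was smaller (9.72e-05 against 0.00137, unadjusted edgeR p), and DESeq2 did not call Rbpj. Rbpj lay at 151, 190 and 161 CPM in WT and at 308, 291, 318 and 197 CPM in KO. KO 4 stood just above the highest WT library, and the left-out library, at 269 CPM, stood with the KO libraries. The log2 fold change was 0.71 (SE 0.16, edgeR adjusted p = 0.974). Of the other 14 members of the Notch list tested, none had an unadjusted p under 0.05, and 8 of all 15 were higher. Sema3c, a secreted semaphorin, lay at 11.9, 10.4 and 12 CPM in WT and at 16.5, 17.8, 15.4 and 19.4 CPM in KO. The groups of Sema3c did not overlap (log2 fold change 0.57, SE 0.13; edgeR adjusted p = 0.974). Within the list of 20 semaphorins, plexins and neuropilins, Sema4a, a semaphorin of immune cells, was lower in KO with Sema6b (log2 fold change -0.39, SE 0.13). Of the 20, 11 were higher and 9 lower.

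The other 10 named genes higher in KO had log2 fold changes from 0.31 to 0.87. Atp2b4, a pump that exports calcium across the plasma membrane, lay at 46.7, 47.2 and 49.7 CPM in WT and at 64.6, 60.5, 80.5 and 70.7 CPM in KO. Cblb, a ubiquitin ligase that restrains immune cell activation, lay at 31.2 to 32.5 CPM in WT and at 39.7 to 47.3 CPM in KO. Capn2, a calcium-dependent protease, lay at 126 to 156 CPM in WT and at 180 to 198 CPM in KO. Msmo1, an enzyme of cholesterol synthesis, lay at 30.6 to 32 CPM in WT and at 37.8 to 40.5 CPM in KO, with the left-out library at 40.4 CPM. The mitochondrial ribosomal RNA mt-Rnr2 lay at 345 to 349 CPM in WT and at 394 to 521 CPM in KO, from libraries selected for polyadenylated RNA. Rnf26, at 1.66 to 2.14 CPM in WT and 3.11 to 3.78 CPM in KO, shares 56.6% of its exon bases with the same-strand gene Gm49380, so its value is uncertain. The rest were Enc1, a kelch-repeat protein that binds actin (log2 fold change 0.53), Sh3bp5, an exchange factor for the GTPase Rab11 (0.33), the zinc finger gene Zscan26 (0.34) and Sel1l3 (0.85).

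**Figure D2:**
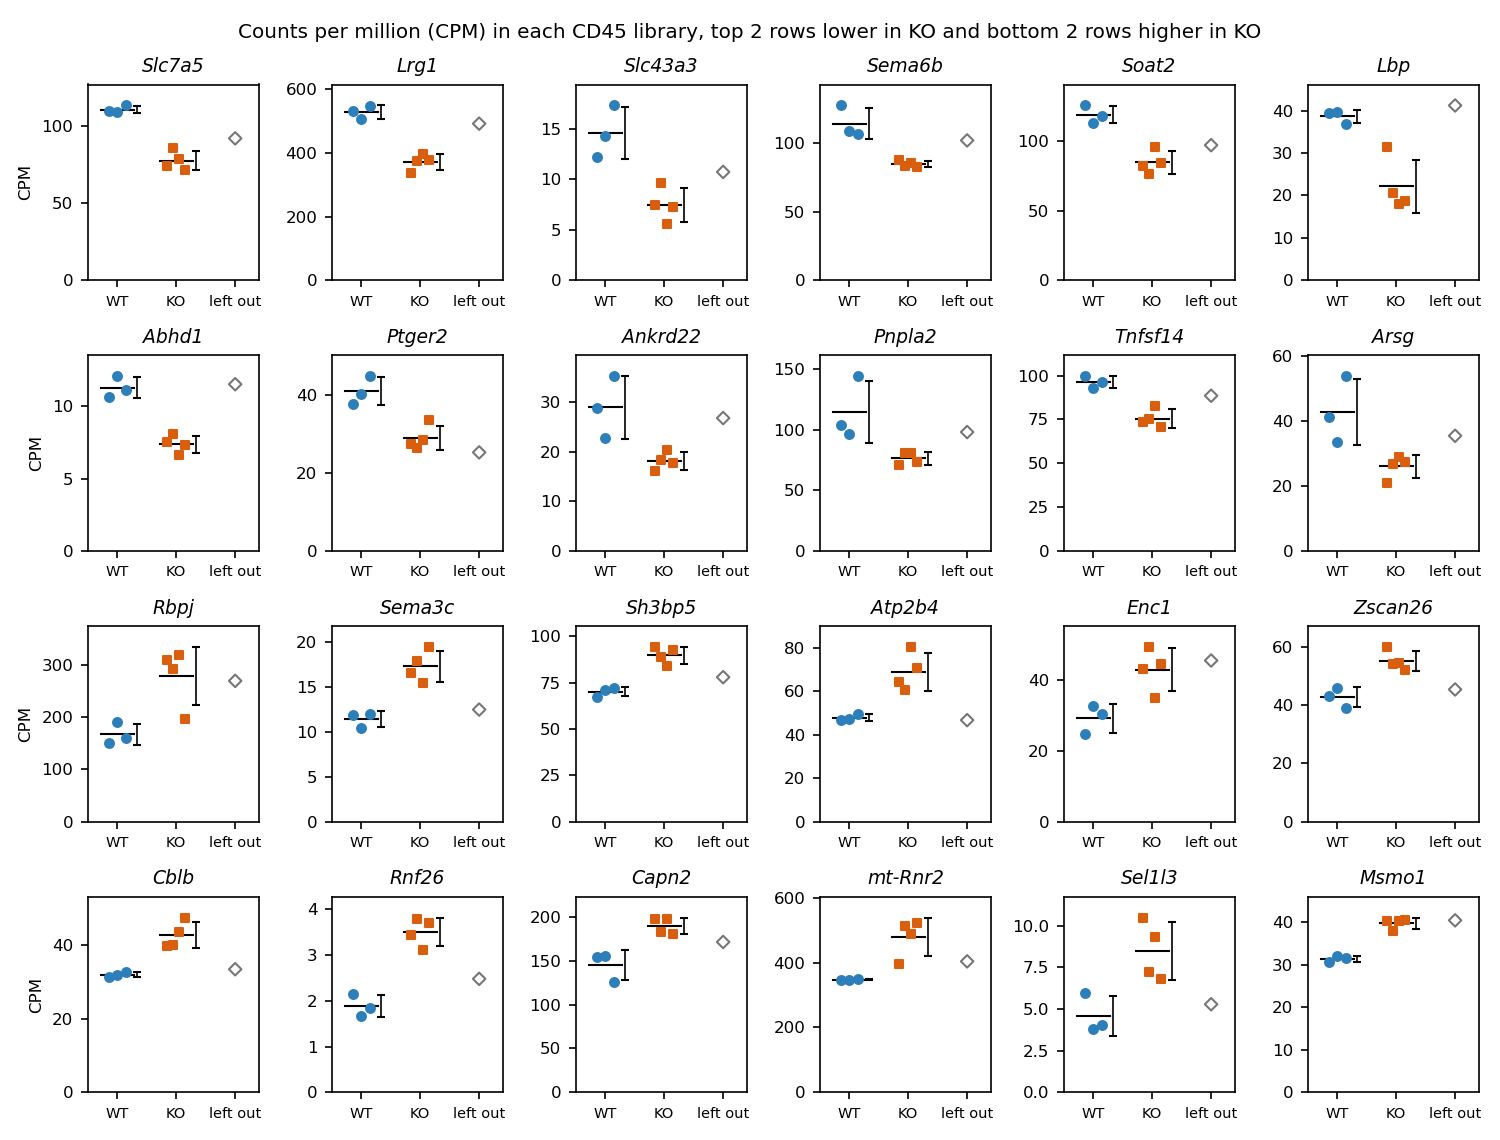
CPM of the 12 named genes lower in KO (top 2 rows) and the 12 higher in KO (bottom 2 rows) with the smallest p among genes whose groups do not overlap. Points are libraries (circles WT, squares KO, open diamond the left-out library), lines group means and bars 1 SD, with a vertical axis from 0. The rule admits only genes without overlap, and the left-out library lies between the groups for 6 of the lower and 5 of the higher genes.

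The left-out library had no fixed place among these 24 genes. Of the 12 genes lower in KO it lay within the WT range for 4, between the groups for 6 and beyond both for 2. Of the 12 higher in KO it lay within the WT range for 3, between the groups for 5 and within the KO range for 4.

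Slc7a5 and Slc43a3 belong to a list of 30 genes of amino acid transport and of targets of ATF4, the transcription factor that induces amino acid uptake and synthesis under amino acid shortage or endoplasmic reticulum stress. The list was chosen with the result for Slc7a5 known, so it is not independent evidence of its direction. All 30 were tested, 23 were lower and 7 higher in KO, and 10 (9 lower, 1 higher) had an unadjusted p under 0.05, or 33.3% of the list beside 4.43% of all genes. The median log2 fold change was -0.16, beside 0.02 over all genes. Without Slc7a5 and Slc43a3 the list had 21 of 28 members lower, 8 with an unadjusted p under 0.05 and a median of -0.14. These 28 were also chosen with earlier results of these data known, so they are not independent evidence either. The count with an unadjusted p under 0.05 was 4 of the 30 without WT 3 and 5 without KO 4, with medians of -0.17 and -0.14, and it was 4 without both.

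Some members are best known as products of the stress response. Trib3, a pseudokinase that feeds back on ATF4, lay at 13.9, 12.2 and 23.9 CPM in WT and at 9.67, 9.07, 9.33 and 6.54 CPM in KO, without overlap (log2 fold change -0.98, SE 0.24). WT 3 was the highest library, and without it the log2 fold change of Trib3 was -0.62. Sesn2, which lowers mTORC1 activity when leucine is short, lay at 58.2, 56.6 and 89.9 CPM in WT and at 42.0, 46.2, 55.3 and 54.0 CPM in KO, and its log2 fold change of -0.50 was -0.24 without WT 3. Atf3, a transcription factor induced downstream of ATF4, lay at 631, 625 and 736 CPM in WT and at 575, 573, 494 and 588 CPM in KO, again without overlap (log2 fold change -0.28, SE 0.11). Chac1, which degrades glutathione, had overlapping groups and a log2 fold change of -0.65 (SE 0.27) that was -0.28 without WT 3 and KO 4. None of these passed the adjusted test in edgeR.

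Transporters and enzymes of the list had smaller differences. Slc1a5, a glutamine transporter, lay at 61.9, 68.0 and 66.2 CPM in WT and at 67.3, 43.3, 48.5 and 42.7 CPM in KO. KO 1 was within the WT range and the other 3 KO libraries were below it (log2 fold change -0.40, SE 0.14). Slc7a1, which imports arginine and lysine, had a log2 fold change of -0.20 (SE 0.08), and Shmt2, the mitochondrial enzyme that takes a carbon unit from serine, had one of -0.24 (SE 0.09). Slc3a2, the chain that carries Slc7a5 to the cell surface, lay at 587, 574 and 662 CPM in WT and at 614, 563, 609 and 585 CPM in KO, with overlap (log2 fold change -0.06, 95% interval -0.29 to 0.16). The mRNA of Atf4, whose protein is controlled mainly by translation, had a log2 fold change of -0.07 (95% interval -0.28 to 0.14) and 0.026 without WT 3 and KO 4, and that of the cystine transporter Slc7a11 had one of -0.07 (95% interval -0.64 to 0.49) and 0.24 without WT 3. Vldlr, a lipoprotein receptor listed as an ATF4 target, was higher in KO, at 1.46 to 1.78 CPM in WT and 1.95 to 3.96 CPM in KO (log2 fold change 0.77, SE 0.30, and 0.49 without WT 3 and KO 4). Those of these genes that are named by a low p other than Slc7a5 and Slc43a3 were chosen after their values were seen.

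**Figure D3:**
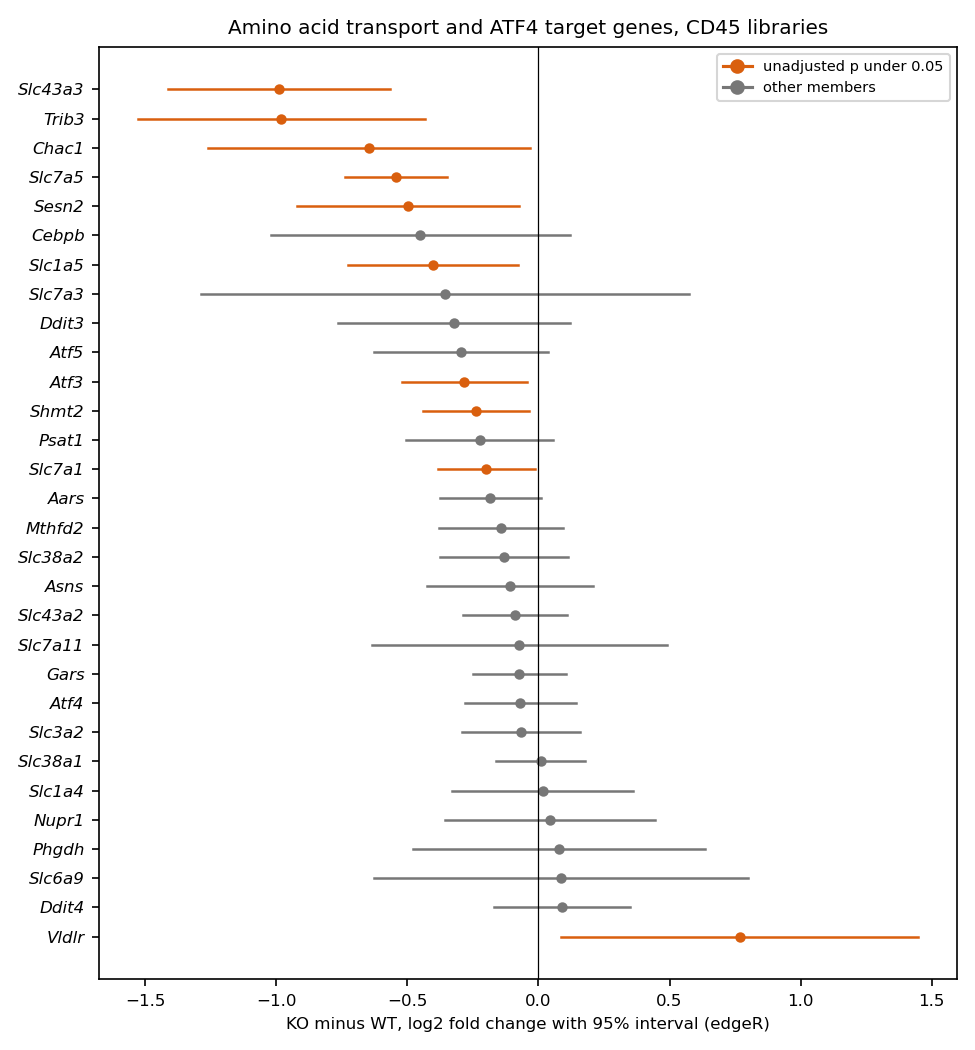
Log2 fold change of KO against WT with its 95% interval from edgeR for the 30 members of the list of amino acid transport and ATF4 targets, ordered by fold change. Orange marks the 10 members with an unadjusted p under 0.05, of which 9 lie below 0 and Vldlr lies above.

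ATF4 binds DNA with C/EBP proteins at an element written TGATGNAA, and the promoters of the members were searched for it on both strands. RefSeq windows of 300 bases (build GRCm38.p6, from 250 bases before to 50 after the start of transcription) were found for 25 of the 30 members. Slc7a5, Slc43a3, Slc1a5, Slc7a3 and Slc38a1 had no window and were not searched. The element was in a window of 10 of the 25 (40%), beside 2.86% of the 11278 tested genes with a window. The list was put together partly from known targets of ATF4, so a higher share than that of all genes follows from the choice of members. Stretches that lie before the start are shown for 3 members with an unadjusted p under 0.05 and for Asns, which makes asparagine and had a log2 fold change of -0.11 (SE 0.14). They run 5′ to 3′ on the strand of the gene, and capitals mark the element, which reads TTGCATCA where it lies on the other strand.
Atf3, chr1:191183410-191183469, minus strand: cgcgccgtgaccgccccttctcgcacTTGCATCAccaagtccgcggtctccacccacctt
Chac1, chr2:119351023-119351082, plus strand: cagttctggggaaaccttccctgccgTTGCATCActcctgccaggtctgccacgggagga
Vldlr, chr19:27216794-27216853, plus strand: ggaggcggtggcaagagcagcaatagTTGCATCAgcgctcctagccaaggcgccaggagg
Asns, chr6:7693210-7693258, minus strand: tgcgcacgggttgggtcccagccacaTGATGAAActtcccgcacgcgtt
Members with the element included both directions of difference. Of the 10 members with it, 7 were lower in KO, 4 had an unadjusted p under 0.05 and the median log2 fold change was -0.09. Of the 15 with a window that lacks these letters, 12 were lower, 3 had an unadjusted p under 0.05 and the median was -0.14. A match is a description of the sequence and not a bound site.

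In the list of 15 targets of mTORC1 and MYC, which drive growth when amino acids are plentiful, 11 were lower in KO with a median log2 fold change of -0.13. Cad, the enzyme that opens pyrimidine synthesis, was the 1 member with an unadjusted p under 0.05 (log2 fold change -0.27, and -0.16 without WT 3 and KO 4). Without WT 3 the median of the list was -0.06, and its count of members with an unadjusted p under 0.05 was 0 without WT 2, WT 3 or KO 4, 2 without WT 1 and 3 without KO 1. The 24 genes of glycolysis and hypoxia had 16 lower and none with an unadjusted p under 0.05, and their median was -0.02. Of 18 genes of cholesterol synthesis and esterification, 14 were higher and Soat2 was the 1 member with an unadjusted p under 0.05, at a list median of 0.09.

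The mitochondrial genome encodes core subunits of the respiratory chain. Of 13 mitochondrially encoded subunits of the respiratory chain, 10 were tested, and all 10 were higher in KO, beside 54.5% of all genes. The median log2 fold change was 0.36, and 3 (30%) had an unadjusted p under 0.05, beside 4.43% of all genes. The complex I subunit mt-Nd4 lay at 578, 703 and 474 CPM in WT and at 727, 932, 856 and 671 CPM in KO. Only KO 4 lay within the WT range (log2 fold change 0.42, SE 0.15). The left-out library, at 925 CPM of mt-Nd4, was near the highest KO library. Cytochrome b, mt-Cytb, had a log2 fold change of 0.35 (SE 0.15), and the complex I subunit mt-Nd2 had one of 0.42, which was 0.24 without WT 3. The count with an unadjusted p under 0.05 was 0 without WT 1, KO 2 or KO 3, 1 without WT 3, and 6 without WT 2 or KO 4. The 20 subunits encoded in the nucleus had a median of 0.03, with 15 higher and none with an unadjusted p under 0.05.

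Sensing of microbes and of damage runs through Toll-like receptors and inflammasomes. A list score is the mean log2(CPM + 0.5) of the members tested, and no p is given for it. The groups were separated in the scores of 2 of the 38 lists (5.26%), this one and the ATF4 list, a share close to the 797 of 15660 single genes (5.09%) whose groups did not overlap. The 20 Toll-like receptor and inflammasome genes scored 7.39, 7.35 and 7.36 in WT and 7.21, 7.19, 7.33 and 7.26 in KO. The KO libraries were all lower by a small margin, narrowest between KO 3 and WT 2. Lbp, a member known from earlier results of these data, lay at 17.9 CPM in KO 3 and at 36.9 to 39.7 CPM in WT. Whether the scores stay separated without Lbp was not tested. Of the 20, 17 were lower in KO with a median log2 fold change of -0.09. The median ran from -0.15 (without WT 2) to -0.05 (without KO 2) with 1 library left out. An unadjusted p under 0.05 was found for 3 (15%, beside 4.43% of all genes), all lower. These were Lbp and a pair of receptors that each act with Tlr2 on bacterial lipoproteins. Tlr6 lay at 91.7, 85.8 and 108 CPM in WT and at 75.4, 66.7, 83.9 and 78.1 CPM in KO, without overlap (log2 fold change -0.35, SE 0.12). Tlr1, at 209, 184 and 163 CPM in WT and 164, 143, 167 and 137 CPM in KO, overlapped (log2 fold change -0.31, SE 0.11). The ATF4 list scored 5.83, 5.76 and 5.90 in WT and 5.63, 5.73, 5.64 and 5.60 in KO. In the other 36 lists the groups overlapped in the score.

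Cytokines start and spread the inflammatory response. The list of 16 tested also holds the enzymes Ptgs2 and Nos2, and Il10 and Tgfb1, which are in the list of anti-inflammatory and repair macrophages too. Of the 16, 12 were higher in KO with a median log2 fold change of 0.13. An unadjusted p under 0.05 was found for 2 (12.5%, beside 4.43% of all genes), both higher. That count was 6 without KO 4 and 1 without WT 3 or KO 3, and the median was 0.23 without WT 3 and 0.08 without KO 3 or KO 4. Il6, a cytokine of the acute phase, lay at 14.8, 17.5 and 13.2 CPM in WT and at 18.5, 29.4, 24 and 19.7 CPM in KO, without overlap (log2 fold change 0.57, SE 0.17, edgeR adjusted p = 0.974). Ptgs2, the inducible enzyme of prostaglandin synthesis, lay at 553, 610 and 332 CPM in WT and at 840, 746, 788 and 584 CPM in KO. Its log2 fold change of 0.54 was 0.33 without WT 3, its lowest library. Il1b lay at 3528, 3244 and 2092 CPM in WT and at 3179, 3024, 3134 and 3235 CPM in KO, with overlap (log2 fold change 0.06, and -0.13 without WT 3). Of 20 chemokines and receptors, 12 were higher and only Ccl2, which draws monocytes through Ccr2, had an unadjusted p under 0.05. Its log2 fold change of 0.45 was 0.24 without WT 3. The median of the chemokine list was 0.10 with all libraries and 0.02 without KO 4.

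Monocytes and neutrophils are the cells that enter injured cortex first. Of 16 genes of infiltrating monocytes and macrophages, 14 were higher with a median log2 fold change of 0.15, and 1 had an unadjusted p under 0.05. The median was 0.04 without KO 3 and 0.24 without WT 2, and the count was 0 without WT 3, 2 without WT 1 and 3 without WT 2 or KO 2. Chil3, a chitinase-like protein of monocytes and alternatively activated macrophages, lay at 292, 305 and 220 CPM in WT and at 404, 408, 429 and 285 CPM in KO, with KO 4 within the WT range (log2 fold change 0.46, SE 0.16). Arg1, the arginase of the same macrophages, lay at 2481, 2640 and 1790 CPM in WT and at 2405, 3004, 2571 and 3451 CPM in KO, with overlap (log2 fold change 0.29, SE 0.17). That of Arg1 was 0.14 without WT 3, 0.18 without KO 4 and 0.028 without both. Of 20 neutrophil genes, 13 were lower, none had an unadjusted p under 0.05, and scores ran from 7.31 to 7.77 in WT and from 6.98 to 7.85 in KO. The count was 4 without KO 3 and 2 without WT 2 or KO 4. Log2 fold changes of the 20 ran from -0.71 to 0.45, with 7 higher in KO. Csf3r, the most abundant of them, lay at 3498, 2856 and 3746 CPM in WT and at 2176, 2791, 3121 and 2625 CPM in KO. Its groups overlapped (log2 fold change -0.36, SE 0.16). S100a9 lay at 2987, 2257 and 3333 CPM in WT and at 1645, 1847, 3006 and 3824 CPM in KO, and Ly6g, the surface marker of mouse neutrophils, ran from 4.24 to 10.8 CPM over both groups. In such bulk RNA, fewer cells of a type and less of its RNA per cell cannot be told apart.

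Microglia are the resident immune cells of the brain and were present in every library. Of 14 genes of homeostatic microglia, 11 were higher in KO and 3 lower, with a median log2 fold change of 0.12. Single members ran from -0.72 to 0.38, so the largest estimate was that of a member lower in KO. An unadjusted p under 0.05 was found for 3 (21.4%), all higher, beside 4.43% of all genes. Siglech, a sialic acid-binding lectin of microglia, lay at 23.2, 20.1 and 18.8 CPM in WT and at 34, 24.9, 26.8 and 24.5 CPM in KO, without overlap (log2 fold change 0.38, SE 0.14). Tmem119 had overlapping groups and a log2 fold change of 0.35, which was 0.23 without KO 4. Sparc, a matrix protein that microglia secrete, had one of 0.28 (SE 0.12), and the purinergic receptor P2ry12 had one of 0.35 (SE 0.20), which was 0.12 without WT 3 and 0.55 without WT 1. The count of 3 was 1 without WT 2, KO 1 or KO 2. Of 17 genes of disease-associated microglia, 11 were lower. An unadjusted p under 0.05 was found for 2 (11.8%, beside 4.43% of all genes), or 1 without WT 3. Itgax, the integrin CD11c, lay at 301, 278 and 411 CPM in WT and at 245, 198, 250 and 230 CPM in KO, and Lpl, a lipase, lay at 259, 252 and 394 CPM in WT and at 241, 246, 231 and 190 CPM in KO. Both were separated between the groups, and both depended on WT 3: the log2 fold change of Itgax went from -0.55 to -0.35 without it, and that of Lpl from -0.44 to -0.19.

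Leukocytes leave the blood by adhesion, and complement and phagocytosis clear debris. Of 16 adhesion and migration genes 10 were higher and 3 (18.8%) had an unadjusted p under 0.05, beside 4.43% of all genes. The count was 1 without WT 2, and the median of the list, 0.03, changed sign without WT 2, KO 3 or KO 4. F11r, the junctional adhesion molecule JAM-A that leukocytes use when crossing endothelium, lay at 28.7, 26.5 and 29.2 CPM in WT and at 37.8, 38.9, 33.9 and 32.1 CPM in KO (log2 fold change 0.31, SE 0.10). Jaml, a related adhesion molecule of leukocytes, lay at 40.4, 41.0 and 34.4 CPM in WT and at 43.0, 45.1, 66.6 and 56.9 CPM in KO, with a log2 fold change of 0.43 that was 0.29 without KO 3. Itgax was the third of these genes. All 11 complement genes tested were higher in KO, beside 54.5% of all genes, with a median of 0.10. None had an unadjusted p under 0.05. Of 20 genes of phagocytosis and the lysosome, 11 were higher, and the scavenger receptor Cd36 was the 1 member with an unadjusted p under 0.05 (194, 174 and 173 CPM in WT, 268, 207, 227 and 212 CPM in KO).

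Of 20 immediate early genes, which also respond to tissue dissociation, 4 (20%) had an unadjusted p under 0.05, beside 4.43% of all genes. All 4 were lower in KO. Of the 20, 13 were lower, with a median log2 fold change of -0.04, and the count of 4 was 2 without WT 3. Jund, a subunit of AP-1, lay at 316, 298 and 390 CPM in WT and at 274, 241, 215 and 262 CPM in KO, without overlap (log2 fold change -0.47, SE 0.12). Exons of Gm11175 on the opposite strand cover 52.6% of those of Jund, so its value is uncertain. Klf2, a transcription factor that keeps leukocytes and endothelium quiescent, had a log2 fold change of -0.53 that was -0.34 without WT 3, and that of Ier5 went from -0.31 to -0.20. Atf3 was the fourth. Whether handling of the tissue differed between the groups was not tested.

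Genes of cells that the CD45 beads should not retain were also counted, some of them at high levels. Mbp, the myelin basic protein of oligodendrocytes, lay at 232, 206 and 1068 CPM in WT, at 236, 399, 379 and 649 CPM in KO and at 311 CPM in the left-out library. WT 3 was the highest library and KO 4 the next. Mobp, another myelin protein, lay at 78.2, 63.7 and 318 CPM in WT and at 72.8, 139, 128 and 201 CPM in KO, with the same pair highest. The list did not follow this order. Its 11 oligodendrocyte genes tested scored 3.89, 3.85 and 4.27 in WT and 3.98, 4.45, 3.79 and 3.98 in KO, with KO 2 highest. The log2 fold change of Mbp was -0.31 with all libraries and 0.91 without WT 3, and that of Mobp went from -0.22 to 0.91. The beta-globin gene Hbb-bs, of red blood cells, lay at 520, 730 and 760 CPM in WT and at 478, 722, 1138 and 497 CPM in KO, with KO on both sides of WT (log2 fold change 0.06, and -0.29 without KO 3). The part of myelin RNA in the values that WT 3 moved was not tested.

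Neuronal genes were the most uneven of these lists. All 14 neuronal genes were higher in KO, with a median log2 fold change of 0.86, and 1 had an unadjusted p under 0.05. Their score was 1.48, 2.35 and 2.14 in WT, 1.74, 3.64, 2.53 and 2.86 in KO and 3.21 in the left-out library, against a highest score of 6.24 in the flow-through. The synaptic gene Snap25 lay at 7.82, 16.4 and 9.02 CPM in WT and at 9.89, 60.9, 23.2 and 14.2 CPM in KO. KO 2 was the highest, and KO 1 and KO 4 lay within the WT range. The splicing factor Rbfox3, the gene with the low p, lay at 0.741 to 1.35 CPM in WT and at 1.02 to 5.39 CPM in KO, with a log2 fold change of 1.46 that was 0.94 without KO 2. The neuronal list had 11 genes with an unadjusted p under 0.05 without KO 1 and 0 without WT 1, WT 3 or KO 2. Among 12 astrocyte genes, 10 were higher, and the glutamate transporter Slc1a2 lay at 23.8, 29.8 and 25.1 CPM in WT and at 31.3, 57.9, 34 and 34 CPM in KO (log2 fold change 0.56, and 0.32 without KO 2). The neuronal, astrocyte and mitochondrial scores were all highest in KO 2, at 3.64, 3.35 and 7.26. Their part in any difference named above was not tested.

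Endothelial genes of the Tie2 pathway, which the series title names, were measured as a check of what entered the fraction. The endothelial list scored 4.35 to 4.64 in WT and 4.04 to 5.11 in KO, all above the highest flow-through score of 3.14. In the flow-through, Tek lay lower than in the CD45 libraries, between 0.573 and 1.90 CPM, and Akap12 lay higher, between 190 and 254 CPM. Of 20 endothelial genes 12 were higher and 8 lower, and none had an unadjusted p under 0.05, with 1 without KO 2 or KO 4. Tek, which encodes the Tie2 receptor, lay at 11.2, 10.7 and 7.56 CPM in WT and at 9.22, 20.3, 10.1 and 4.37 CPM in KO, with KO on both sides of WT (log2 fold change 0.13, and -0.34 without KO 2). Akap12, a scaffold for protein kinase A, lay at 52.9, 55.7 and 68.0 CPM in WT and at 49.4, 92.6, 86.1 and 77.3 CPM in KO, with overlap (log2 fold change 0.35, 95% interval -0.13 to 0.83, edgeR adjusted p = 0.974). Angpt1, a ligand of Tie2, was below 0.7 CPM in every library (0.198 to 0.347 in WT, 0.463 to 0.631 in KO).

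The remaining lists gave few low p-values, and 1 library could turn their medians. Over all 38 lists, the median changed sign with at least 1 library left out for 20 and kept its sign with each library left out for 18. That of border-associated macrophages ran from -0.14 (without WT 3) to 0.34 (without WT 2), and was also below 0 without KO 4. That of T and NK cells ran from -0.05 (without WT 2) to 0.47 (without WT 3, with 2 members at an unadjusted p under 0.05), and was also below 0 without KO 3. The values with all 7 libraries follow. Among cell types with none, 7 of 10 genes of border-associated macrophages were higher in KO (median log2 fold change 0.12), as were 12 of 16 of T and NK cells (0.11), 5 of 10 of B cells (0.01), 4 of 5 tested of mast cells and basophils (0.25), 7 of 10 of pericytes and smooth muscle (0.11), 5 of 11 of oligodendrocytes (-0.03) and 3 of 6 of red blood cells. Of 15 genes of dendritic cells and MHC class II, 8 were lower (median -0.05), and Itgax was the 1 with an unadjusted p under 0.05. Cell cycle genes were lower in 15 of 20 (-0.12), NADPH oxidase genes in 8 of 12 (-0.08), and heat shock genes were higher in 8 of 12 (0.06), with none at that p. Of 15 genes of repair macrophages 9 were higher (0.09), with Chil3 the 1 at that p, and of 16 of prostaglandin synthesis and reception 9 were lower (-0.04), with Ptgs2 and Ptger2 at that p. Of 14 genes of the Tie2 list 12 were higher (0.11), with Angpt1 and Klf2 at that p in opposite directions.

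**Figure D4:**
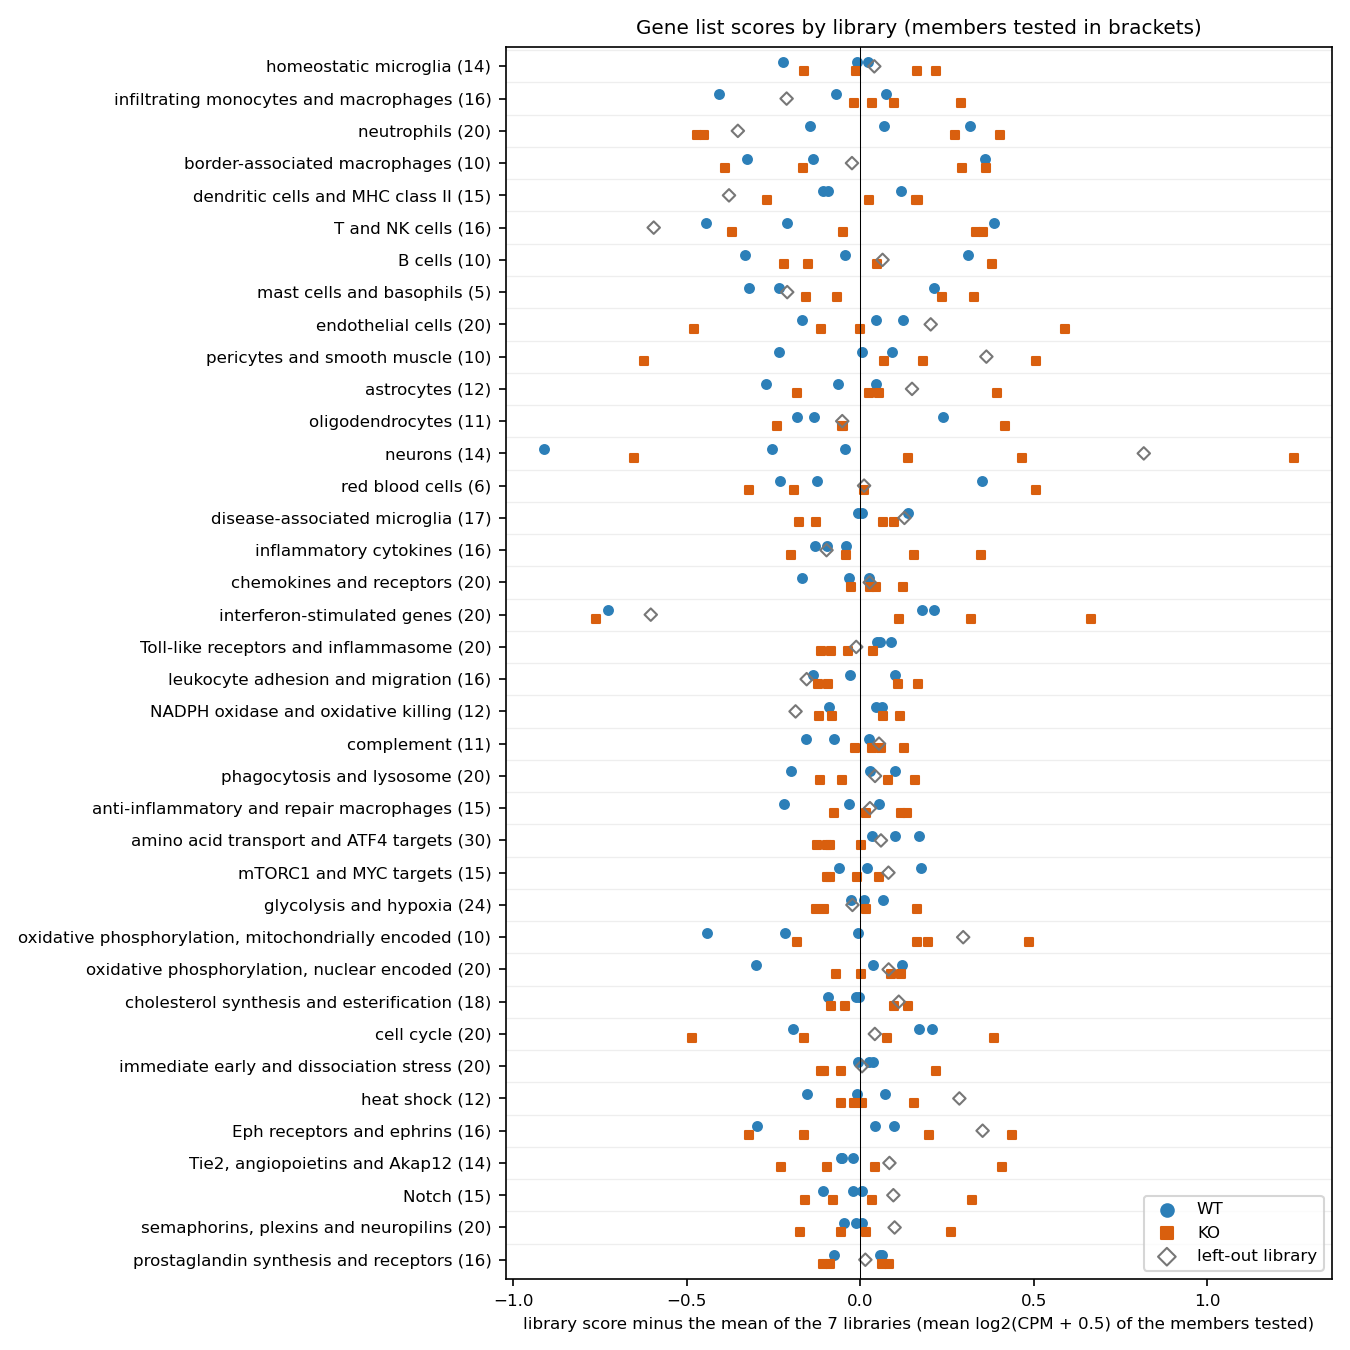
Score of each of the 38 gene lists by library, the average log2(CPM + 0.5) over tested members (number in brackets) minus the mean of the 7 libraries. Blue circles are WT, orange squares KO and open diamonds the left-out library. The groups are separated only for amino acid transport and ATF4 targets and for Toll-like receptors and inflammasome, and the widest ranges are those of neurons and interferon-stimulated genes.

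The same genes were examined in the flow-through of the series, the cells not held by the beads, where 4 WT and 3 KO libraries were used. Slc7a5 had a log2 fold change of 0.28 there (edgeR adjusted p = 0.58), and the difference between the fractions was -0.85 (SE 0.20, edgeR adjusted p = 0.276). Lrg1 had a log2 fold change of -0.61 there (edgeR adjusted p = 0.461). Abhd1 fell in the flow-through, with a log2 fold change of -0.68 and an edgeR adjusted p of 0.00847. Of the 12 named genes lower in KO, 10 were tested in the flow-through and 4 were lower there too, and of the 12 higher, all 12 were tested and 6 were higher there. Over 14106 genes tested in both fractions, 616 had an unadjusted p under 0.05 in the CD45 fraction and 1536 in the flow-through. They shared 121 genes (19.6% of the first and 7.88% of the second), of which 92 had the same direction. Libraries of both fractions may come from the same animals.

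No gene passed the test of a genotype difference that differs between the fractions. The interaction of genotype and fraction had an adjusted p under 0.05 for 0 of 18098 genes (0%) in edgeR, with a smallest adjusted p of 0.131, and 1305 genes had an unadjusted p under 0.05. The smallest p belonged to Rab15, a small GTPase of endosome recycling. It lay at 22.3, 22.6 and 14.5 CPM in CD45 WT and at 8.55, 13.5, 14.8 and 15.3 CPM in CD45 KO (log2 fold change -0.63), while its log2 fold change in the flow-through was 1.29 (edgeR adjusted p = 0.000615). The interaction was -1.94. Ypel3, Palm, R3hdm4 and Tbc1d9b followed, with interactions of -1.01, -0.73, -0.69 and -0.70 and an edgeR adjusted p of 0.178. Each had a log2 fold change below 0 in the CD45 fraction and above 0 in the flow-through. In the CD45 fraction that of R3hdm4 was only -0.13 and that of Tbc1d9b only -0.10. With limma-voom Rab15 was called, and with 1 library left out the count was 0 to 2.

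The spread between libraries of 1 genotype was as large as that between genotypes. The root mean square distance of log2 CPM between a pair of libraries had a median of 0.556 for the 12 pairs across genotypes, 0.614 for the 6 pairs within KO and 0.556 for the 3 pairs within WT. Chi-square per degree of freedom between pairs ran from 11.2 to 87.0, so no library was a copy of another. The first principal component of log2 CPM held 29% of the variance and the second 24.8%. WT 3 (29.3) and KO 4 (42.7) lay at one end of the first, where the other 5 libraries lay between -30.3 and 1.52. KO 2 lay at the end of the second, at -47.6. Neither component separated the genotypes.

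The interferon-stimulated list varied widely within each genotype, and its groups overlapped. Type I interferons induce these antiviral genes together. The 20 genes scored 5.11, 5.14 and 4.20 in WT, 5.04, 5.25, 5.60 and 4.17 in KO and 4.33 in the left-out library. WT 3, KO 4 and the left-out library were thus all below the lowest of the other 5. Ifi27l2a lay at 34.1, 31.4 and 17.2 CPM in WT, at 44.5, 52.3, 74.0 and 16.6 CPM in KO and at 22.7 CPM in the left-out library. Oasl2, a 2'-5' oligoadenylate synthetase-like protein, lay at 157, 118 and 96.6 CPM in WT, at 149, 167, 215 and 73.7 CPM in KO and at 68.3 CPM in the left-out library. Rsad2, the antiviral enzyme viperin, was highest in KO 3 (152 CPM) and lowest in the left-out library (28.4 CPM), and Ifit3 ran from 15.6 to 54.2 CPM over the 7 libraries. Of the 20 genes 16 were higher in KO, with a median log2 fold change of 0.14 and none with an unadjusted p under 0.05. That median was -0.08 without WT 3, -0.06 without KO 3 and 0.34 without KO 4, and 5 of the 20 had an unadjusted p under 0.05 without KO 4 and without both WT 3 and KO 4. Over all genes, without WT 3 and KO 4, edgeR called 0 genes for genotype and 619 had an unadjusted p under 0.05. The labels give no batch, and whether these libraries share one was not tested.

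**Figure D5:**
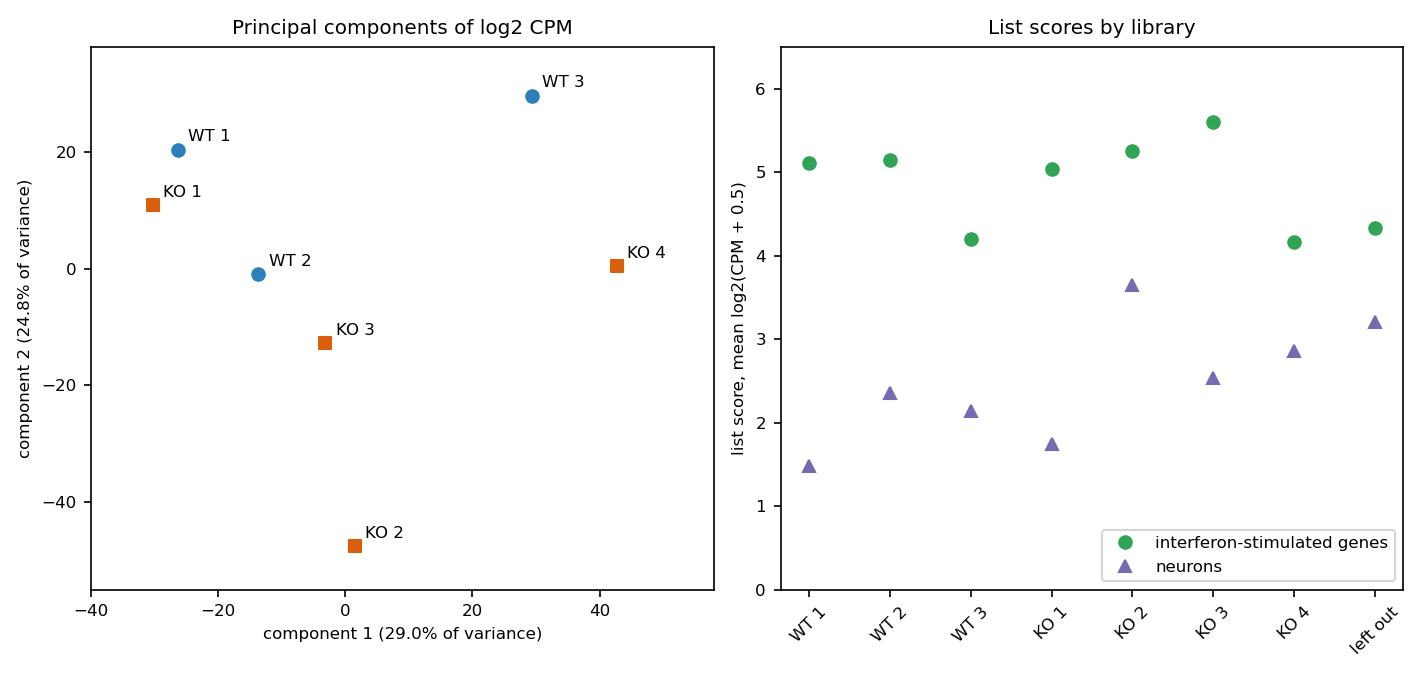
Left, the 7 libraries on the first and second principal components of log2 CPM (circles WT, squares KO). Right, scores of the interferon-stimulated and neuronal lists in each library, as mean log2(CPM + 0.5). WT 3 and KO 4 lie apart on the first component and have the lowest interferon scores of the 7, 4.20 and 4.17.

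Single genes could vary far more within a genotype than the median gene. Among genes with a mean of at least 5 log2 CPM the median within-genotype SD was 0.14 on the log2 scale. Gdpd3, an enzyme that makes lysophosphatidic acid, had an SD of 1.55: it lay at 101, 91.5 and 165 CPM in WT and at 65.7, 4.12, 71.1 and 50.8 CPM in KO. KO 2 was lower than any other library by far. Ctse, the protease cathepsin E, lay at 92.6, 84.7 and 47.6 CPM in WT and at 37.8, 97.7, 81.5 and 11.8 CPM in KO (SD 1.11). Apob, the apolipoprotein of low-density lipoproteins, lay at 56.3, 114 and 17.8 CPM in WT and at 80.5, 24.7, 27.7 and 17.2 CPM in KO (SD 1.10). The widest spread was that of Tpm3-rs7 and the pseudogene Rpsa-ps10 (SD 2.75 and 2.31), near-copies of Tpm3 and Rpsa among which reads cannot be assigned with certainty.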

How the data were processed

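The authors deposited gene counts, whole numbers of reads per gene, in 1 table per cell fraction. Per the submitters' processing notes, reads were handled with Trim Galore, FastQC, STAR 2.7.9a and DESeq2 on GRCm38. How reads were counted, on which strand and with which annotation is not given in the sources used here. Libraries came from a stranded mRNA kit with 14 PCR cycles, per the labels' protocols. Of 33223 genes, 33130 matched GENCODE M21, used for names, positions and overlaps.

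The test was edgeR 4.0.16 in R 4.3.3 on the counts (quasi-likelihood with robust estimation, TMM, filterByExpr with at least 10 counts and 15 in total), two-sided, with Benjamini-Hochberg adjustment and a threshold of 0.05. DESeq2 1.42.0 and limma 3.58.1 were alternatives. The code was tested on simulated data. Levels are CPM without TMM scaling. Fold changes are those of the fit. Named genes were a panel, the 12 with the smallest p in each direction (mean of at least 1 log2 CPM, no overlap, no predicted model or provisional name), up to 4 members of each list, the 5 with the smallest interaction p and the 10 of widest spread. The libraries of the comparison were chosen by their labels. Several genes of the panel and the 38 gene lists (14 of cell types, 24 of pathways) were chosen with earlier results of these data known.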

Additional observations from a re-analysis of the deposited data

Results flagged for a closer look

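In the 4 KO libraries, 1 library stood far from the other 3 for 7 of 102 genes examined by name, and for 0 of the 38 list scores. Such a gap is found in about 1 of 20 groups of independent, normally distributed values. Many of the 102 genes were picked by their p or spread, and all come from the same libraries. The rate therefore need not hold for them, and nothing about chance is concluded from the count. KO 2 was low for Msmo1 (37.8 CPM against 40.3 to 40.5) and for Preb (125 CPM against 143 to 146). It was high for Slc1a2 (57.9 CPM against 31.3 to 34). KO 4 was high for Nfkbia, the inhibitor of NF-kappa B (1502 CPM against 890 to 977), and for 1110059E24Rik (21.9 CPM against 19.3 to 19.5). KO 3 was low for Atf3 (494 CPM against 573 to 588), and KO 1 was high for Apob (80.5 CPM against 17.2 to 27.7). Outside the comparison, the library labelled flow-through WT in the CD45 count table held 906 CPM of Ptprc, where the flow-through libraries held 0.660 to 1.22 CPM.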

How the results depend on the processing

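The count of genes called for genotype was 0 in edgeR with 2 other scalings, with other filters, without robust estimation and in the joint fit of both fractions, and 0 in limma-voom with and without library weights. It was 9 in DESeq2, and 0 to 1 with 1 library left out. Without WT 3 and KO 4, a choice made after seeing the data, it was 0. For the interaction, limma-voom called 1 gene (Rab15), and with 1 library left out the count was 0 to 2: Ypel3 and Plcxd2 without WT 2, Rab15 without KO 1, and Kcnab2 and Rab15 without WT 3. No scaling, filter or tool moved the median over all genes by more than 0.017 (log2). Among the genes named, 14 estimates changed sign and moved by at least 1 SE of the reported fit. With 1 library left out, Tek ran from -0.34 (without KO 2) to 0.40, Il1b from -0.13 (without WT 3) to 0.21 Slc7a11 from -0.28 to 0.24 (without WT 3), Mbp from -0.69 to 0.91 (without WT 3), Mobp from -0.59 to 0.91 (without WT 3) and Hbb-bs from -0.29 (without KO 3) to 0.21. Without both WT 3 and KO 4, Il1b was at -0.15, Slc7a11 at 0.18, Atf4 at 0.026, Mbp at 0.60 and Mobp at 0.64, and with library weights in limma-voom Slc7a11 was at 0.24, Mbp at 0.61 and Mobp at 0.65. The cause was not tested. No paired analysis was possible because the labels carry no replicate numbers.

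Intervals were wider for genes with fewer counts: the interval of the log2 fold change lay within -1 to 1 for 73.4% of all genes tested and for 97.5% of those with a mean of at least 5 log2 CPM.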
